A study of Homo sapiens with 4 samples.

Results

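Expression of the interleukin 1 family and its receptors was examined in ES2 cells, an established human ovarian cancer cell line, after treatment with the natural ERβ agonist liquiritigenin (Liq). The family members were 10 genes taken by symbol from the 23228 genes of the count tables. They comprised the ligands IL1A, IL1B, IL18, IL33 and IL37, the receptor antagonist IL1RN, and the receptor chains IL1R1, IL1R2, IL1RAP and IL1RL1. The control group was treated with vehicle and the other group with Liq, which the methods of the study give at 100 μM, in each case for 24 h in phenol red-free medium with charcoal-stripped serum. Each group had 2 samples of the same cell line, with no genetic change in either. Nothing in the sample descriptions says that duplicates came from separate cultures, so p-values measure only the spread between these samples, which may be technical.

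IL-1α (IL1A) and IL-1β (IL1B) are inflammatory cytokines that bind the receptor IL-1R1, which then recruits the accessory protein encoded by IL1RAP. The assembled receptor signals through the adaptor MYD88 and the IRAK kinases to NF-κB and MAP kinases, and IL1B is itself a classical NF-κB target. The antagonist (IL1RN) occupies IL-1R1 without signalling, IL1R2 encodes a decoy receptor, and IL1RL1 encodes ST2, the receptor of the alarmin IL-33. IL-18 is matured by caspase-1 as IL-1β is, and IL-37 is regarded as an anti-inflammatory member of the family.

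Reads counted on genes numbered 34573053 to 48933893 per sample, and a library of this depth resolves 3 reads as 0.0598 to 0.0844 CPM (read counts scaled to library size by the TMM method). Keratin genes KRT7, KRT8 and KRT18 and VIM were expressed in every sample, whereas EPCAM and KRT19 had 1 to 3 reads and MUC16 0 or 1 read. Because myeloid cells are the best known source of IL-1β, 8 monocyte and macrophage markers were examined. Their summed level was 69.1 to 75.9 CPM in vehicle and 67.1 to 78.4 CPM in Liq, and nearly all of it was CD68. The other 7 markers lay between 0 and 0.876 CPM, with 0 or 1 read for the pan-leukocyte gene PTPRC and 2 or 3 reads for the myeloid factor SPI1. CSF1R and LYZ, both under 1 CPM, were called lower with Liq, and their part in the results was not tested. LYZ (23 and 15 reads in vehicle, 8 and 9 in Liq) passed the filter on low counts through the vehicle samples alone. The 4 T and B cell markers had 0 reads in every sample. Of the endothelial markers, CDH5 had 44.6 to 52.9 CPM, while PECAM1 and VWF had 1 to 10 reads. Of the fibroblast markers, COL1A1 had 1160.0 to 1430.0 CPM and DCN and LUM had 0 or 1 read, and PDGFRB was higher with Liq (log2 fold change 0.97, SE 0.22, edgeR adjusted p = 0.002234). WT1, a marker of serous ovarian carcinoma, was lower (-0.68, SE 0.16, edgeR adjusted p = 0.002849). Of the other epithelial and carcinoma markers, PAX8 was also called lower (-1.34). KRT7 was higher at less than 1.5-fold (0.51, SE 0.07, edgeR adjusted p = 1.081e-05). KRT18 (-0.24) and VIM (-0.28) were lower at less than 1.5-fold, and KRT8 (0.13) gave no significant change. Of the receptors of the agonist, ESR2 (ERβ) had 4 and 7 reads in vehicle and 5 and 14 in Liq and was not tested, and ESR1 had 17 to 34 reads per sample.

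IL1B was the dominant transcript of the family in ES2 cells and fell sharply with Liq. It had 427 and 418 CPM in the vehicle samples and 82.0 and 80.7 CPM in the Liq samples. The groups did not overlap, which was so for 61.7% of all tested genes, and duplicates differed by little in either group. The log2 fold change (log2FC) of Liq over vehicle was -2.38 (SE 0.07, adjusted p = 4.243e-19 by edgeR's quasi-likelihood test with Benjamini-Hochberg adjustment), which is 5.2-fold lower. Among the 2492 tested genes with a mean of at least 100 CPM, no other gene fell by as large a factor. Among all 13546 tested genes IL1B ranked 11 by the size of the decrease and 2 by p-value.

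The neighbouring ligand gene IL1A was expressed at a far lower level and gave no significant change. Its reads numbered 37 and 52 in vehicle and 25 and 50 in Liq, or 0.9 and 1.39 CPM against 0.703 and 0.996 CPM. The ranges of the groups overlapped. Its log2FC was -0.39 (SE 0.28, adjusted p = 0.3454 by edgeR), and it went from -0.69 to -0.06 across the alternative fits. IL1A therefore made up a larger share of the IL1A and IL1B reads in the Liq samples. The share was 0.21% (95% Wilson interval 0.153 to 0.29) and 0.331% (0.253 to 0.434) in the vehicle samples. In the Liq samples it was 0.85% (0.576 to 1.25) and 1.22% (0.927 to 1.6). These intervals cover counting error only. The log2 ratio of IL1B to IL1A reads was 8.56 ± 0.46 in vehicle and 6.60 ± 0.37 in Liq (SD, n = 2), a difference of -1.96. A two-sided exact permutation test gave p = 0.333 for n = 2 against 2, which is the smallest value such a design allows.

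IL37 was lower with Liq at the limit of detection. It had 22 and 20 reads in vehicle and 2 and 6 reads in Liq, equal to 0.535 and 0.534 CPM against 0.0562 and 0.12 CPM. Both Liq samples lay below both vehicle samples, and Liq replicate 1 lay under the 3-read limit. Groups were separated in 61.7% of all tested genes, in one direction or the other. The log2FC was -2.48 (SE 0.52, adjusted p = 0.0009535 by edgeR). The gene passed the filter on low counts through the vehicle samples alone. IL33 had 6 and 4 reads in vehicle and 1 and 7 in Liq, and IL18 had 0 to 2 reads per sample. The antagonist gene IL1RN had 0 reads in all 4 samples, where 3 reads would equal 0.0598 to 0.0844 CPM. Such counts do not show that the gene is silent. IL1RN, IL18 and IL33 did not pass the count filter and were not tested in the main comparison. Without that filter, 9 of the 10 members were tested and 3 were called, as with it.

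**Figure D1:**
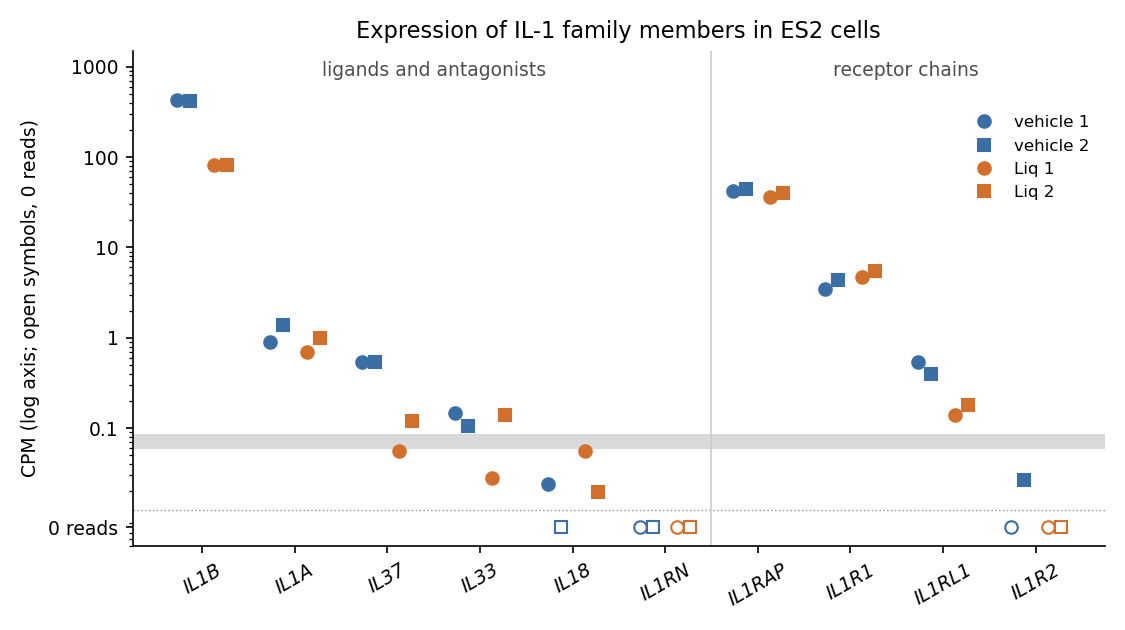
CPM of the 10 genes (log axis) in each of the 4 samples, with vehicle in blue, Liq in orange, circles for replicate 1 and squares for replicate 2. Open symbols mark 0 reads, and the grey band marks the level of 3 reads (0.0598 to 0.0844 CPM). IL1B stands at 427 and 418 CPM in vehicle and at 82.0 and 80.7 CPM in Liq, while the symbols of IL1RAP lie close together.

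Among the receptor chains, IL1RAP, the accessory protein shared by the receptors of IL-1 and IL-33, was the most abundant. It had 42.6 and 43.9 CPM in vehicle and 36.3 and 39.9 CPM in Liq. The Liq samples were a little lower, and the change was not called (log2FC -0.18, SE 0.09, adjusted p = 0.1349 by edgeR, 0.03463 to 0.4974 over the alternative fits). IL1R1, the signalling receptor of IL-1α and IL-1β, had 3.43 and 4.41 CPM in vehicle against 4.67 and 5.44 CPM in Liq. Both Liq samples lay above both vehicle samples, but 61.7% of all tested genes showed such a separation in one direction or the other. The log2FC of IL1R1 was 0.38 (SE 0.15, adjusted p = 0.07527 by edgeR), which missed the threshold. It moved to 0.20 without vehicle replicate 1, to 0.57 without vehicle replicate 2 and to 0.26 without Liq replicate 2, and its adjusted p ranged from 0.02059 to 0.6033 over the alternative edgeR and DESeq2 fits. The change stayed under 1.5-fold in all of them, so IL1R1 was called in none. The decoy receptor gene IL1R2 had 1 read in vehicle replicate 2 and 0 reads in the other samples.

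IL1RL1, which encodes the IL-33 receptor ST2, was lower with Liq at low counts. It had 22 and 15 reads in vehicle and 5 and 9 reads in Liq, or 0.535 and 0.401 CPM against 0.141 and 0.179 CPM. The groups did not overlap, as in 61.7% of all tested genes. The log2FC was -1.51 (SE 0.47, adjusted p = 0.02034 by edgeR). This call was fragile, since it was lost when any one of the 4 samples was left out (adjusted p = 0.0525 to 0.2726 by edgeR) and in the DESeq2 Wald test (adjusted p = 0.1842). Like IL37, IL1RL1 passed the count filter only through the vehicle samples. Its locus overlaps that of IL18R1 in the GENCODE annotation, and HTSeq leaves out reads that fall on more than 1 gene. The annotation used for the counting is not given, so whether IL1RL1 reads were lost in this way was not tested.

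In all, 6 of the 10 members passed the filter, and 3 of these (IL1B, IL37 and IL1RL1) were called lower with Liq, where a call needs a change of 1.5-fold or more and an adjusted p-value under 0.05. Of all tested genes, 6.45% were called in either direction, 2.16% as lower and 4.29% as higher. Because IL37 and IL1RL1 entered the test through vehicle alone, the member count is a description. With at least 10 reads required in every sample, 4 members were tested and IL1B alone was called. Over all genes the calls were 581 higher and 293 lower, and with offsets that follow the expression level they were 356 higher and 393 lower. Under those offsets, the log2FC values of IL1B, IL37 and IL1RL1 were -2.31, -2.74 and -1.76. In bulk RNA, less transcript per cell and fewer cells expressing a gene cannot be told apart.

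**Figure D2:**
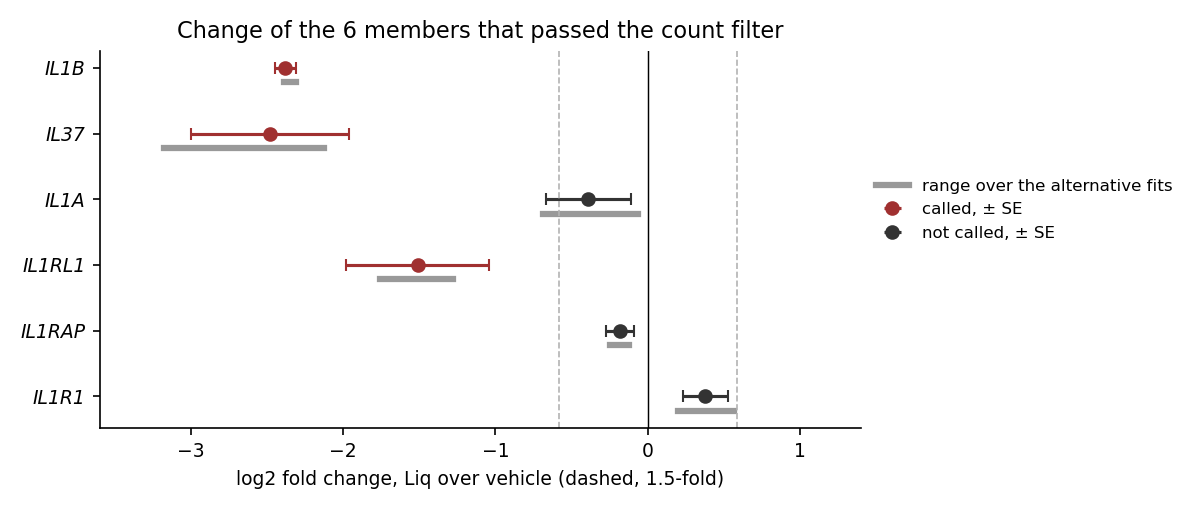
Log2 fold change of Liq over vehicle for the 6 tested members, with points and bars for the edgeR estimate ± SE, in red where called, and grey bars for the range over the alternative fits. IL1B has the narrowest bar among the called genes (-2.38, SE 0.07), and the dashed lines mark a 1.5-fold change.

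To compare levels between genes, CPM was divided by the length of the canonical transcript in kilobases. In vehicle-treated cells the order on this scale was IL1B (280 ± 4.23), IL1RAP (9.11 ± 0.19), IL1R1 (0.756 ± 0.133), IL37 (0.619 ± 0.000694), IL1A (0.567 ± 0.171) and IL1RL1 (0.234 ± 0.0476 CPM per kilobase, SD, n = 2). IL37 and IL1A did not differ beyond their spread, and IL1R1 and IL1A lay within the sum of their SDs of each other. The SD of IL37 rests on 2 similar counts (22 and 20 reads) and leaves out counting error. Its order against IL1R1 is therefore not settled. In Liq-treated cells the order was IL1B (54.0 ± 0.631), IL1RAP (8.04 ± 0.539), IL1R1 (0.975 ± 0.105), IL1A (0.421 ± 0.103), IL37 (0.102 ± 0.0518) and IL1RL1 (0.0801 ± 0.0137 CPM per kilobase). IL37 and IL1RL1 did not differ beyond their spread there.

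The fall of IL1B changed the make-up of the family's transcripts. IL1B accounted for 89.9% (95% Wilson interval 89.4 to 90.3) and 89.2% (88.7 to 89.6) of the reads on the 10 genes in the vehicle samples. In the Liq samples its share was 66.1% (64.7 to 67.5) and 63.3% (62.1 to 64.4). The share of IL1RAP was 8.96% and 9.36% in vehicle and 29.3% and 31.3% in Liq, although the CPM of IL1RAP did not change significantly. The log2 ratio of IL1B to IL1RAP reads was 3.29 ± 0.05 in vehicle and 1.09 ± 0.11 in Liq (SD, n = 2, exact permutation p = 0.333). IL1B thus stayed the most abundant member in every sample.

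**Figure D3:**
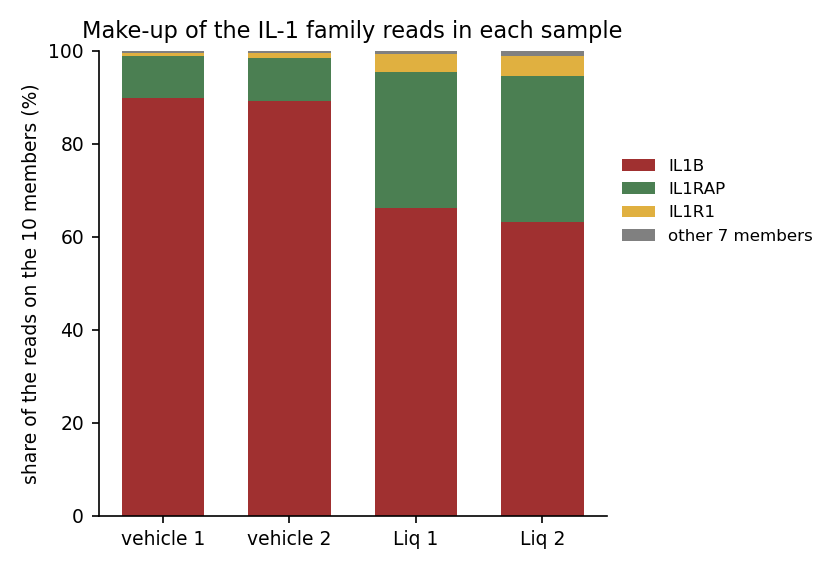
Share of the reads on the 10 genes taken by IL1B, IL1RAP, IL1R1 and the other 7 genes, as stacked bars that reach 100% in each sample. IL1B fills 89.9% and 89.2% of the vehicle bars and 66.1% and 63.3% of the Liq bars.

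The 3 ligand genes that passed the count filter lie side by side on chromosome 2 (GRCh37, GENCODE annotation). IL1A spans chr2:113531502-113542070 on the minus strand, IL1B spans chr2:113587328-113594393 on the minus strand, and IL37 spans chr2:113668742-113676459 on the plus strand. The canonical transcripts of IL1A and IL1B have 7 exons each and that of IL37 has 6. The upstream sequences of these genes are shown because IL1B and IL37 fell with Liq while IL1A, which lies beside IL1B, gave no significant change. They are the 250 bases before the most upstream RefSeq start of each gene (RefSeq table on GRCh38.p14), matched exactly to GRCh37 at chr2:113594357-113594606 (minus strand) for IL1B, chr2:113668492-113668741 (plus strand) for IL37 and chr2:113542071-113542320 (minus strand) for IL1A. The GENCODE span of IL1B reaches past this RefSeq start, so the final bases of the IL1B window lie inside that span. Capitals mark matches to the AP-1 motif TGANTCA or the C/EBP motif TTGCNNAA, searched on both strands.
IL1B: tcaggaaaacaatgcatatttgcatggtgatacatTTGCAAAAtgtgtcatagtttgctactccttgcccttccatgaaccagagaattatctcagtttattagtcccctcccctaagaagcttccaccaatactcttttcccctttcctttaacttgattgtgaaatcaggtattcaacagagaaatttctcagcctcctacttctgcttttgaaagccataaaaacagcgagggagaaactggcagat
IL37: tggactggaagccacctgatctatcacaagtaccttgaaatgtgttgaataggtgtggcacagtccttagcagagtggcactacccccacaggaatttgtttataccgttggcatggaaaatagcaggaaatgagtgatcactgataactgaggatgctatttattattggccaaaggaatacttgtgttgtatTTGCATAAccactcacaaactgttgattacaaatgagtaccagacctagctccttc
IL1A: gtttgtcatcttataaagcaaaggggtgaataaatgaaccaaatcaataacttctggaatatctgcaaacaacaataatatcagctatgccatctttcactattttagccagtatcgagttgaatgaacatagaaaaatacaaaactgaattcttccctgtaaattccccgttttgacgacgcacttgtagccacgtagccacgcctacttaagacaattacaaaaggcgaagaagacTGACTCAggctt
The IL1B window held 1 C/EBP match, at -215 to -208 from the RefSeq start, and the IL37 window held 1, at -56 to -49. The IL1A window held no C/EBP match but 1 AP-1 match, at -12 to -6. Windows of other members with a RefSeq start were searched as well. That of IL1RL1, which was also called lower, held no match to either motif. The window of IL1RN, which had no reads, held an AP-1 match and no C/EBP match. Of all 35116 RefSeq windows of this length, 9.05% held the C/EBP motif and 6.57% the AP-1 motif. A κB motif, GGG and TTTCC with any pair of bases between them, was present in 1.73% of all windows and was not found in the 3 windows shown. Only this form of the motif and only these 250 bases were searched, so the absence of other κB sites was not tested. A match is a description of the letters and not a binding site, and no factor binding was measured.

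Between SLC20A1 and PAX8, the ends of the ligand cluster, the tables list 13 genes, of which 7 were tested and 3 were called lower (IL1B, IL37 and PAX8), beside 2.16% of all tested genes. IL37 was among those tested through its vehicle samples alone. CKAP2L, a mitotic spindle gene beside IL1A, had 6590 and 6587 reads in vehicle and 5782 and 8829 reads in Liq (log2FC 0.01). SLC20A1, a phosphate transporter gene, had a log2FC of -0.42 (SE 0.07, adjusted p = 3.938e-05 by edgeR), under 1.5-fold. At the other end, PSD4 had a log2FC of -0.22 (SE 0.09, adjusted p = 0.07934 by edgeR). PAX8, a transcription factor of the Müllerian lineage used as an ovarian carcinoma marker, fell from 49 and 46 reads to 12 and 29 reads (log2FC -1.34, SE 0.31, adjusted p = 0.002137 by edgeR). The 5 other genes of the family in this interval, IL36G, IL36A, IL36B, IL36RN and IL1F10, had 0 or 1 read per sample.

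The receptor cluster on chromosome 2 holds IL1R2 (chr2:102608422-102645006), IL1R1 (chr2:102681004-102796334) and IL1RL1 (chr2:102927962-102968497), all on the plus strand. An antisense gene, IL1R1-AS1, overlaps IL1R1 in the annotation, and the strand setting of the counting is not given in the sources used here. Between MAP4K4 and SLC9A2, 5 of 10 listed genes were tested, and IL1RL1 alone was called lower, beside 2.16% of all tested genes. IL1RL1 was tested through its vehicle samples alone, and its call was fragile, as described above. IL18R1, the IL-18 receptor chain next to IL1RL1, had 29 and 32 reads in vehicle and 32 and 36 in Liq (log2FC 0.04, SE 0.30). At the ends of the interval, MAP4K4 had a log2FC of -0.12 and SLC9A2 of -0.04, and neither passed the threshold. IL1RL2, the IL-36 receptor gene, had 0 reads in every sample, and IL18RAP had 1 read in Liq replicate 2 and 0 reads elsewhere. The other members lie on chromosome 3 (IL1RAP, chr3:190231840-190377539), chromosome 9 (IL33, chr9:6215786-6257983) and chromosome 11 (IL18, chr11:112013976-112034819).

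**Figure D4:**
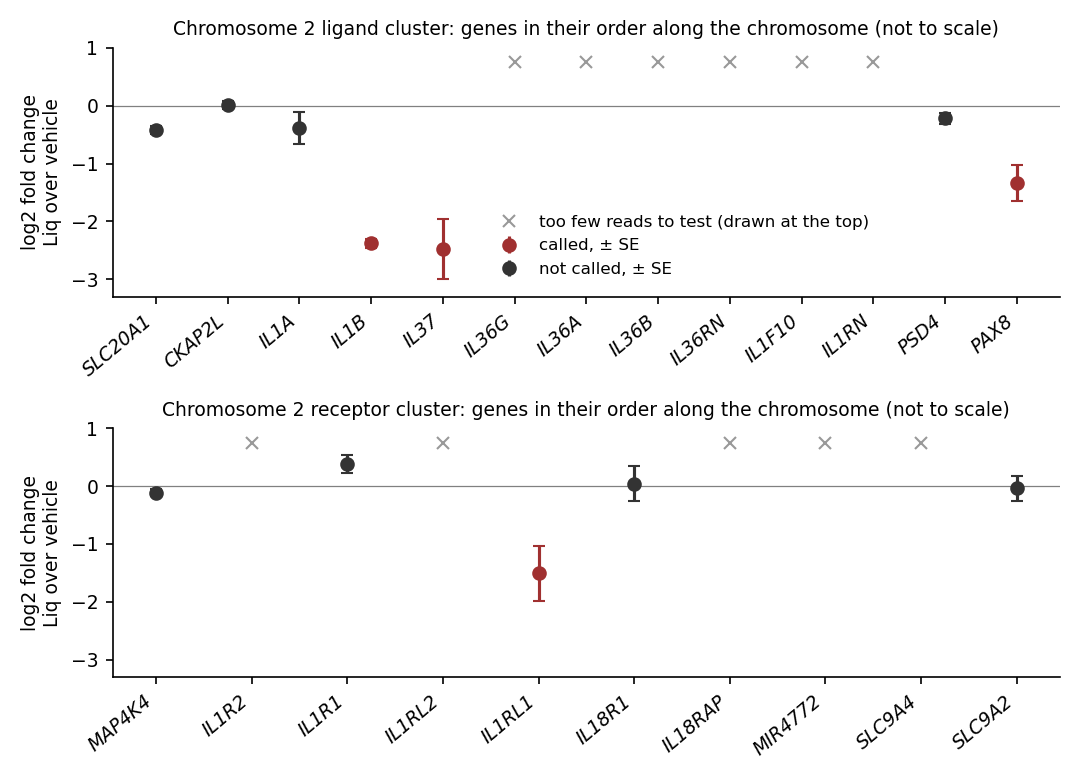
Log2 fold change of Liq over vehicle (± SE) for the genes of the ligand and receptor clusters of chromosome 2, placed in chromosome order and not to scale. Red points were called, black points were not, and crosses mark genes with too few reads to test. IL1B (-2.38) and IL37 (-2.48) stand next to each other between IL1A and a run of untested genes.

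The other 12 ligands, receptors and binding proteins of the family were also followed, and 4 had enough reads. IL18BP, the secreted inhibitor of IL-18, had 7.35 and 9.72 CPM in vehicle and 10.7 and 7.73 CPM in Liq, and its locus overlaps NUMA1. SIGIRR, an inhibitory receptor of the family, had 18.6 and 18.4 CPM in vehicle and 17.2 and 16.7 CPM in Liq. IL1RAPL1, a neuronal synaptic homologue of the accessory protein, had 5.72 and 5.93 CPM against 4.22 and 5.22 CPM. None of these 3 genes or IL18R1 was called by edgeR or by DESeq2, and 0 of the 4 had an unadjusted p-value under 0.05. Their median log2FC was -0.05, against 0.0062 over all tested genes.

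Of 24 adaptors, kinases and ubiquitin enzymes that act below the IL-1 receptor, all tested, 1 was called (4.17% against 6.45% of all tested genes), and the median log2FC was 0.03. MYD88, the adaptor of the receptor, had 25.8 and 24.5 CPM in vehicle and 20.8 and 21.0 CPM in Liq. Its log2FC was -0.27 (SE 0.09, adjusted p = 0.0392 by edgeR), under 1.5-fold. The called gene was IRAK3, an inactive kinase that restrains signalling in macrophages, with 8 and 7 reads in vehicle and 13 and 40 in Liq. Its log2FC was 1.66 (SE 0.46, adjusted p = 0.009874 by edgeR). IRAK3 passed the filter through the Liq samples alone, its 2 Liq samples differed widely, and its call was lost without Liq replicate 2 (log2FC 0.92, adjusted p = 0.3193 by edgeR), without either vehicle sample and with DESeq2. Including MYD88, 5 genes of this list had an adjusted p-value under 0.05 at less than 1.5-fold, 3 lower and 2 higher. By adjusted p-value at any fold, 6 of the 24 passed, beside 24.0% of all tested genes. The other 4, named after their values had been seen, were the kinase gene IRAK1 (log2FC -0.34), the ubiquitin-conjugating enzyme gene UBE2N (-0.31), the ubiquitin ligase gene PELI3 (0.52) and the adaptor gene SQSTM1 (0.30).

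Genes for the maturation and export of IL-1 ligands moved in both directions. Of 24 genes 17 were tested, with 2 called lower and 1 called higher (17.6%, against 6.45% of all tested genes) and a median log2FC of -0.16. A further 6 had an adjusted p-value under 0.05 at less than 1.5-fold, 5 lower and 1 higher. By adjusted p-value at any fold, 9 of the 17 passed, 7 lower and 2 higher, beside 24.0% of all tested genes. NLRP3, the inflammasome sensor, had 33.3 and 32.2 CPM in vehicle and 15.6 and 16.1 CPM in Liq (log2FC -1.05, SE 0.09, adjusted p = 4.002e-09 by edgeR). S100A13, which takes part in the unconventional export of IL-1α, showed a log2FC of -0.83 (with SE 0.08 and adjusted p = 7.89e-09 by edgeR), from 5349 and 4511 reads to 2433 and 3648 reads. Its locus overlaps S100A1. P2RX7, the ATP-gated channel that triggers IL-1β release, rose from 24 and 20 reads to 59 and 84 reads, a log2FC of 1.57 (SE 0.27, adjusted p = 9.626e-05 by edgeR). CASP1, the protease that cleaves pro-IL-1β, had 52 and 45 reads in vehicle and 44 and 64 in Liq (log2FC 0.03, SE 0.24). PYCARD, the inflammasome adaptor ASC, was singled out after its values had been seen, and it had 0 reads in all 4 samples.

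Genes that IL-1 is widely known to induce were mostly lower with Liq. Of 34 such genes 28 were tested, of which 15 were called lower and 2 higher, 60.7% of the tested list against 6.45% of all tested genes. The median log2FC was -0.61. This list shares genes with NF-κB target panels already examined in these samples, so it is not independent evidence of a direction. The cytokine genes IL11, CSF3 and LIF had log2FC values of -1.49, -1.52 and -0.95. CXCL8, the neutrophil chemokine gene listed as IL8, fell by 0.91. The collagenase and stromelysin genes MMP1 and MMP3 fell by 1.79 and 1.19, the adhesion gene VCAM1 by 1.00 and the early response gene IER3 by 0.91. All of these passed the test in every alternative fit.

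Exceptions were found within the inducible list. The 2 genes called higher, named after their values had been seen, were PTGES and BDKRB1. PTGES, the prostaglandin E synthase gene, had 2 and 3 reads in vehicle and 10 and 14 in Liq (log2FC 2.08, SE 0.67), and it passed the filter through the Liq samples alone. BDKRB1, the inducible bradykinin receptor gene, had 31 and 33 reads against 62 and 60 (log2FC 0.82, SE 0.27). Both lost their call with the offsets that follow the expression level. PTGES also lost it in each fit without 1 sample (edgeR adjusted p = 0.05812 to 0.2656), and DESeq2 gave it no adjusted p. BDKRB1 lost its call with DESeq2 and without vehicle replicate 1, vehicle replicate 2 or Liq replicate 1. IL6, the best known IL-1-induced cytokine gene and also named after its values had been seen, had 19 and 22 reads in vehicle and 20 and 23 in Liq (log2FC -0.05, SE 0.36). Without Liq replicate 1, 12 genes of the list were called, all lower.

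**Figure D5:**
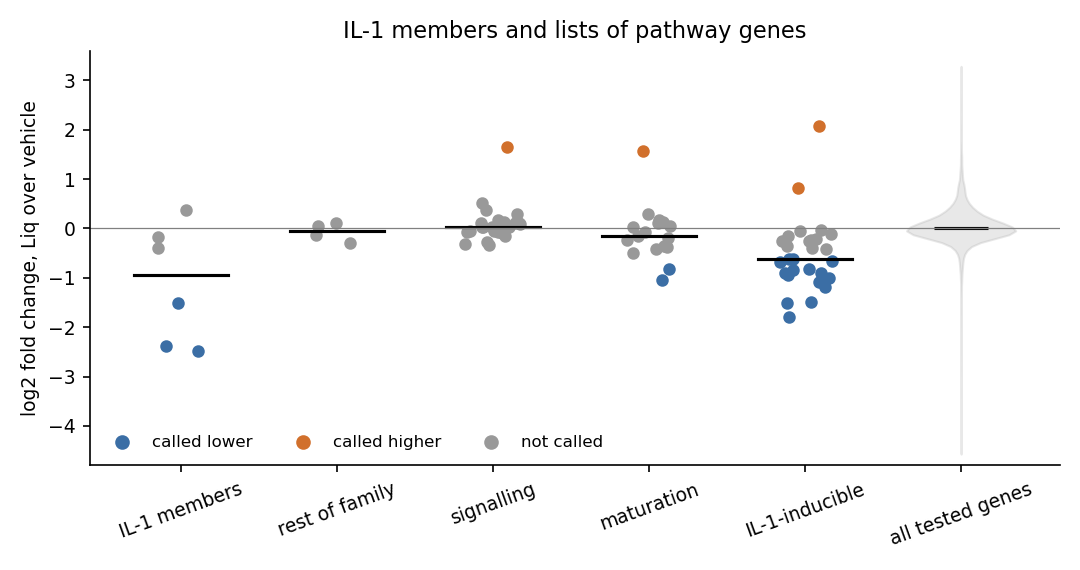
Log2 fold change of Liq over vehicle for the tested genes of the 5 lists, with 1 point per gene, a black line at each list's median and a violin for all 13546 tested genes. The medians are -0.61 for the inducible genes, 0.03 for the signalling genes and -0.16 for the maturation genes.

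Likeness to IL1B was measured as the distance between log2 CPM profiles, each centred over the 4 samples, among 9545 genes with a mean of at least 10 CPM. The nearest gene was SCG5, which encodes the secretory granule chaperone 7B2, at a distance of 0.143, with 19.2 and 17.3 CPM in vehicle and 3.91 and 3.59 CPM in Liq. It was followed by LOC730755 (0.207), SERPINB2 (0.293), which encodes a plasminogen activator inhibitor, CHRNA1 (0.345), which encodes a muscle acetylcholine receptor subunit, and WDR66 (0.387). For IL37 the nearest gene was IL1B, at a distance of 0.852, followed by SERPINB2 (0.923) and SCG5 (0.96). These distances exceed the 0.143 to 0.387 of the genes nearest to IL1B. The IL37 profile rests on 22 and 20 reads in vehicle and 2 and 6 in Liq. Genes with a mean under 10 CPM, like IL37 itself, could not be its neighbours. For IL1RL1, which had only 5 to 22 reads per sample, the nearest were HES1 (0.267), a Notch target gene, ISG20 (0.38) and STC1 (0.408). With 2 samples in each of 2 groups, such a distance mainly compares the size of the change.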

How the data were processed

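RNA-seq of 4 samples, 2 treated with vehicle and 2 with Liq, was used. The sample titles gave groups and replicate numbers, and the dose is from the methods of the study. TruSeq libraries were sequenced as single-end reads. Per the labels, the authors used bcl2fastq 2.17.1.14 and TopHat2 2.0.8b on hg19 and counted reads per gene with HTSeq, whose version, annotation and strand setting are not given in the sources used here. The deposited values are raw counts per gene symbol, not normalized. Reads with more than 1 alignment (35.63% to 36.23% of the tallied reads) or on more than 1 gene are not counted by HTSeq. The 5 tally lines at the end of each table were left out of library sizes and tests.

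The analysis used edgeR 4.0.16 under R 4.3.3. filterByExpr (minimum count 10, minimum total 15) kept 13546 of 23228 genes, TMM factors scaled the libraries, and the effect of Liq was tested over all genes with glmQLFit and glmQLFTest, with Benjamini-Hochberg adjustment. A called gene changed by 1.5-fold or more with an adjusted p-value under 0.05. The SE is the log2 fold change divided by the square root of F. Chi-square per degree of freedom between duplicates was 6.491 and 11.6, above sampling noise, so no sample was counted as a copy. The fits were tested on simulated counts. Coordinates and lengths are from GENCODE on GRCh37, which is the same assembly as hg19, and 82.4% of the symbols matched.

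The members and lists were chosen with earlier results of these data known. All members are named, and of each list the called genes with the smallest p-values (at most 8), MYD88 and CASP1. Tested genes of both chromosome 2 clusters are named too. Alternatives were DESeq2 size factors, upper-quartile scaling, loess offsets (span 0.3), no filter, a minimum of 10 counts in each of the samples, DESeq2 1.42.0 (Wald test), a replicate block, omission of each sample in turn, unadjusted p-values and other fold thresholds.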

Additional observations from a re-analysis of the deposited data

How the results depend on the processing

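IL1B was called in all 11 alternative fits (log2 fold change -2.39 to -2.31). IL37 had log2 fold changes of -3.18 to -2.13 in the 10 fits that kept it. Except in the fit with no filter on low counts (-2.49, edgeR adjusted p = 0.0003972), it was admitted through its vehicle samples alone, so the number of its calls is no measure of stability. IL1A, IL1R1 and IL1RAP were called in none. IL1RL1 was called in 5 of 10, and it lost its call with the DESeq2 Wald test (-1.54) and in each fit without 1 sample (-1.72 to -1.28), the cause of which was not tested. With 1 sample left in a group, that sample is assumed to vary like the others. Requiring 10 counts in every sample removed IL37 and IL1RL1 from the test and left 1 called member, and it left 0 called signalling genes, as did DESeq2, against 1. That count was 0 to 1 across the fits without 1 sample. Called genes over the whole table numbered 566 with DESeq2, 3245 without a fold threshold and 328 at 2-fold, against 874. Without a fold threshold 6 signalling and 9 maturation genes were called, and at 2-fold 6 inducible genes.

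Genes that were not called changed sign in some fits. With loess offsets CASP1 moved to -0.17 and IL18R1 to -0.18. In the fits without 1 sample the log2 fold change ranged from -0.01 to 0.07 for CASP1, from -0.14 to 0.32 for IL18BP, from -0.12 to 0.21 for IL18R1, from -0.06 to 0.08 for CKAP2L and from -0.23 to 0.16 for SLC9A2. The replicate number as a block gave 898 called genes, 3 of them members (IL1B at -2.38), and changed no member's call. With it the edgeR adjusted p moved from 0.1349 to 0.03743 for IL1RAP and from 0.07527 to 0.0499 for IL1R1. Deviations of same-numbered samples had a correlation of 0.0483 across genes. Such a value cannot show whether same-numbered samples were handled together, and the sample descriptions do not say so. Of the 4 members outside the count filter, IL1RN had no reads and the other 3 were tested only without that filter.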
